A study of Mus musculus with 6 samples.

Results

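The genes described here are 10 that act at the lipid droplet or at caveolae: the perilipins Plin2, Plin3, Plin4 and Plin5, the droplet fusion protein gene Cidec, the droplet-forming genes Fitm2 and Bscl2, the lipase inhibitor gene Hilpda, and the caveola genes Cav1 and Cavin1. They were chosen by name, with earlier results of these data known. All 10 were found among the 22180 genes measured, each read by 1 probe set. The samples were 6 intact inguinal mammary glands from C57BL/6J mice aged 4 weeks, which carry ductal epithelium in a bed of fat and stroma, with 1 Affymetrix array per gland. The genotype of 3 glands was Mt1-mmp(+/+), and these came from littermates of the other 3, whose genotype was Dermo1Cre/Mt1-mmp(fl/fl). Mt1-mmp is the older name of Mmp14, a membrane-bound matrix metalloproteinase, and Dermo1 is the older name of Twist2, a locus active in mesenchymal cells, so that the Cre recombinase removes Mmp14 from stroma. Cre is named for the knockout glands only, so an effect of Cre itself and the loss of Mmp14 cannot be told apart.

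A lipid droplet is a store of triglyceride and sterol ester under a single layer of phospholipid, and in a white adipocyte it fills most of the cell. Droplets form in the membrane of the endoplasmic reticulum and grow by lipid synthesis or by fusion. Their coat proteins, above all the perilipins, hold lipases off until a hormone signal arrives. Caveolae are flask-shaped pits of the plasma membrane that caveolins and cavins build together, and they are dense on adipocytes and on endothelium.

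All values are log2 signals as deposited, so a difference of 1 is a change of 2-fold, and differences are knockout minus wild type. Errors on a group mean are SDs and errors on a difference are standard errors (SE), with n = 3 arrays per group throughout. A gene is said to rise or fall where its limma p, adjusted by Benjamini-Hochberg over all 22180 genes, is under 0.05. Mmp14 itself fell from 10.88 ± 0.32 to 8.62 ± 0.11, a difference of -2.25 ± 0.17 (limma adjusted p = 0.000454), and its exact permutation p of 0.1 is the smallest that 3 against 3 arrays can give. The labels do not say where in the gene this probe set lies, so it may read sequence outside the floxed region. The epithelial marker Epcam lay at 8.86 to 8.97 in wild type and at 6.85 to 7.08 in the knockout, so its signal was lower in the knockout. Wild type 1 stands apart by its skeletal muscle markers, whose mean over 8 genes was 6.25, against 3.11 to 3.91 on the other 2 wild-type arrays and 3.13 to 3.37 in the knockout. Each probe set has its own response, so a brighter one does not mean a more abundant transcript, and signal is used across genes only to pick examples and to set a low limit.

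Of the 10 genes, 4 rose and 0 fell in the knockout. These were Plin5, Fitm2, Bscl2 and Plin4, in order of size. Over all genes, 5.05% rose and 7.2% fell, and 12.2% passed in either direction. At an unadjusted limma p under 0.05 there were 6 of the 10, the added ones being Cav1 and Cavin1, and all 6 lay higher in the knockout. Over all genes, 13.1% were higher and 13.4% lower at that unadjusted threshold, 26.5% in all, and the unadjusted counts given for other lists are to be read against these shares. In 7 of the 10, every knockout array lay above every wild-type array, a separation seen in 17.2% of all genes. The median difference of the 10 was 0.35, against 0.03 over all genes. In whole tissue, a change in the number of cells of a type and a change in RNA per cell cannot be told apart. The count of rises was 3 without wild type 1, without wild type 2 or without knockout 3, and 2 without wild type 3, knockout 1 or knockout 2. The 2 that passed with each single array left out were Plin5 and Fitm2. Without wild type 1, the rises over all genes also dropped, from 1121 to 521, and the falls from 1596 to 969. Calls lost without that array, here and in the other lists, are to be read against this drop. Totals over all genes were not taken for the other arrays left out.

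**Figure D1:**
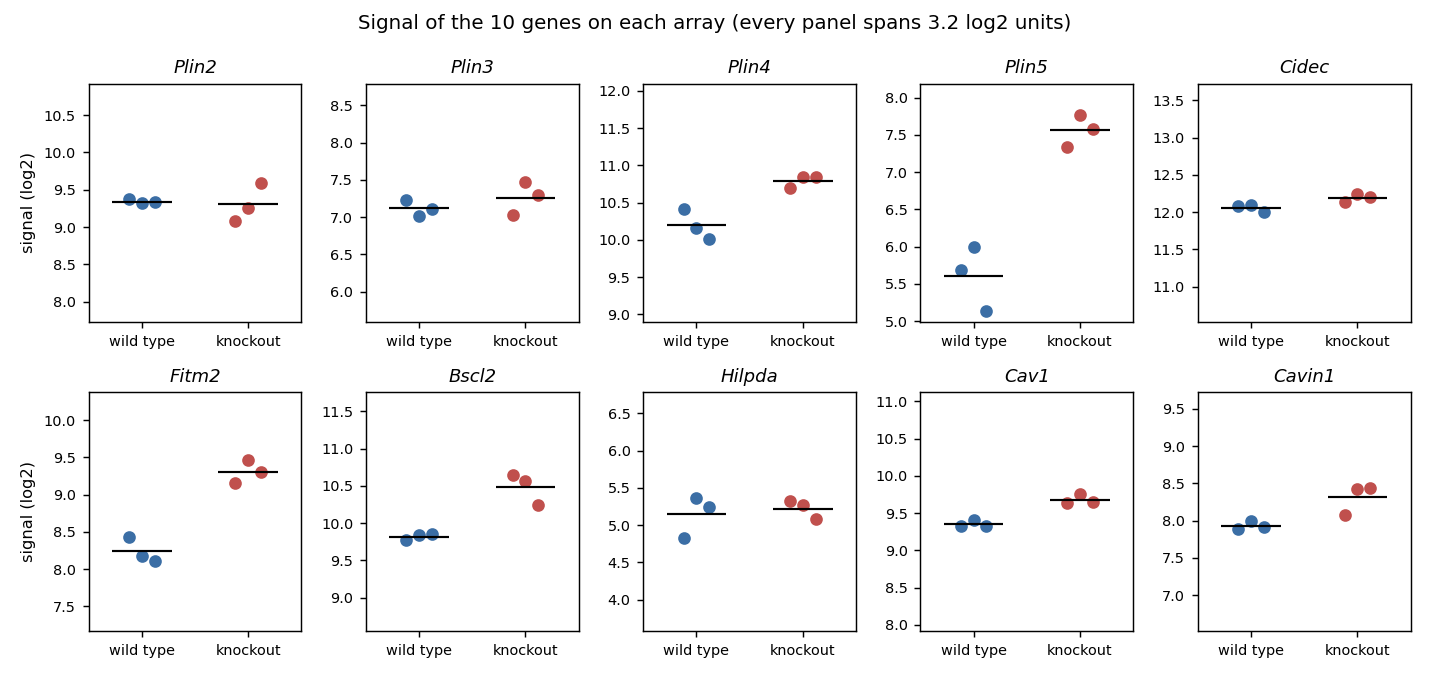
Log2 signal of each of the 10 genes by array, with wild-type arrays in blue, knockout arrays in red and the group mean as a black bar (n = 3 per group). Every panel spans the same range, and the gap between groups is widest for Plin5, from a mean of 5.61 to 7.56.

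Among the perilipins, the difference was largest for Plin5, which ties droplets to mitochondria in tissues that burn fat, such as heart, oxidative muscle and brown fat. Its signal was 5.69, 6.00 and 5.14 in wild types 1 to 3 and 7.34, 7.77 and 7.58 in knockouts 1 to 3. All 3 knockout arrays lay above all 3 wild-type arrays, by more than the spread within either group (5.61 ± 0.44 and 7.56 ± 0.22). Plin5 rose by 1.95 ± 0.23, or 3.87-fold with a 95% interval of 2.69 to 5.56 (limma adjusted p = 0.00216), and stood 14th by size among the 1121 genes that rose. Leaving out any 1 array kept the call (adjusted p 0.00448 to 0.0131). Without wild type 1, the array with the muscle signal, Plin5 passed at an adjusted p of 0.0131.

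Plin4 coats small, early droplets in white adipocytes. It read 10.42, 10.16 and 10.01 in wild type and 10.70, 10.85 and 10.84 in the knockout. The groups did not overlap, and wild type 1 was the closest to the knockout arrays. Plin4 rose by 0.60 ± 0.14, or 1.52-fold with an interval of 1.21 to 1.89 (limma adjusted p = 0.0292). The call held without wild type 1 (adjusted p = 0.0317) and was lost without any other single array (0.0553 to 0.0954).

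Plin2 and Plin3, the perilipins that most cell types carry, did not pass. Plin2, which is stable only on droplets, read 9.37, 9.32 and 9.33 in wild type and 9.08, 9.26 and 9.59 in the knockout. Its wild-type arrays spanned 0.05, while the knockout arrays spread to both sides of them. The difference was -0.03 ± 0.15 with a 95% interval of -0.38 to 0.31, or 0.771-fold to 1.24-fold (limma adjusted p = 0.917). Plin3, which binds new droplets from the cytosol, read 7.23, 7.02 and 7.11 in wild type and 7.03, 7.47 and 7.29 in the knockout. The groups overlapped, with means of 7.12 ± 0.10 and 7.26 ± 0.22. Its difference was 0.14 ± 0.14 with an interval of -0.19 to 0.47 (limma adjusted p = 0.587). The intervals of Plin2 and Plin3 lie under the lower bound for Plin5 (1.43), but the differences between perilipins were not themselves tested. Under centring of each array on white adipocyte markers, Plin2 was at -0.23 and Plin3 at -0.06. Under centring on array medians, taken over the 22180 genes, they were at 0.15 and 0.33, so neither has a settled sign.

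**Figure D2:**
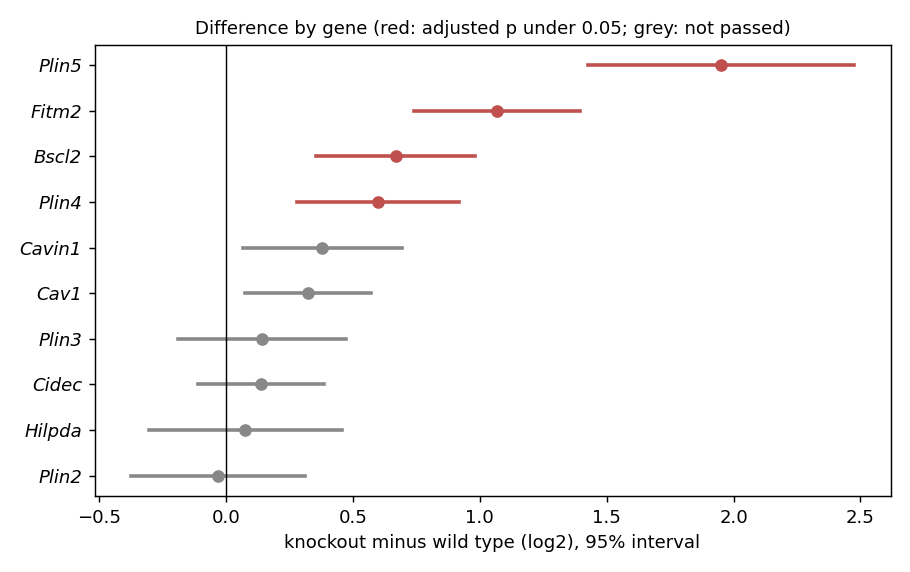
Difference of each gene, knockout minus wild type in log2 units, with its 95% interval from limma (n = 3 per group); red marks an adjusted p under 0.05. Plin5 and Fitm2 have the largest differences, at 1.95 and 1.07, and the interval of Fitm2 overlaps those of Bscl2 and Plin4. The intervals of Plin2, Hilpda, Cidec and Plin3 include 0.

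The 2 genes of droplet formation in the endoplasmic reticulum both rose. Fitm2 encodes an enzyme of that membrane which is needed for droplets to bud toward the cytosol. It read 8.43, 8.18 and 8.11 in wild type and 9.15, 9.47 and 9.31 in the knockout. The lowest knockout array was thus well above the highest wild-type array. Fitm2 rose by 1.07 ± 0.14, or 2.10-fold with an interval of 1.67 to 2.63 (limma adjusted p = 0.00363), and passed without any 1 array (0.00907 to 0.0184). Bscl2 encodes seipin, the protein ring at the neck between droplet and endoplasmic reticulum, whose loss causes congenital lipodystrophy. It read 9.77, 9.84 and 9.85 in wild type and 10.64, 10.57 and 10.25 in the knockout. Knockout 3 was the lowest of its group but still above all wild-type arrays. Bscl2 rose by 0.67 ± 0.14, or 1.59-fold with an interval of 1.28 to 1.98 (limma adjusted p = 0.0178). That call held only when the array left out was wild type 2 or knockout 3; with each of the other 4 left out the adjusted p was 0.0538 to 0.0685.

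Cidec and Hilpda act on droplet size and on lipolysis, and neither passed. Cidec, also called Fsp27, lets small droplets merge into the single large one of a white adipocyte. It read 12.08 and 12.09 in wild types 1 and 2, 12 in wild type 3, and 12.14, 12.24 and 12.20 in knockouts 1 to 3. The groups did not overlap, yet the gap was small, at 0.14 ± 0.11 with a 95% interval of -0.11 to 0.39 (limma adjusted p = 0.466). These signals lie near the top of the scale, where the lowest array maximum was 13.31. Hilpda, a small inhibitor of adipose triglyceride lipase that hypoxia and fatty acids induce, read 4.83, 5.37 and 5.24 in wild type and 5.32, 5.27 and 5.08 in the knockout. All 3 knockout arrays fell within the wild-type range. The difference was 0.08 ± 0.16 with an interval of -0.30 to 0.46 (limma adjusted p = 0.814). With arrays centred on white adipocyte markers the signs turned, to -0.06 for Cidec and -0.12 for Hilpda, and Hilpda was also below 0 without wild type 1 (-0.08).

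The caveola genes lay higher in the knockout without passing. Cav1, the caveolin that forms the coat, read 9.33, 9.41 and 9.33 in wild type and 9.64, 9.76 and 9.65 in the knockout. Cavin1, which stabilises the coat and whose loss also causes lipodystrophy, read 7.89, 7.99 and 7.91 in wild type and 8.07, 8.42 and 8.44 in the knockout. For both genes the groups did not overlap, with knockout 1 the closest to wild type. Cav1 differed by 0.32 ± 0.11, or 1.25-fold with an interval of 1.05 to 1.49 (limma adjusted p = 0.0964). Cavin1 differed by 0.38 ± 0.14, or 1.30-fold with an interval of 1.05 to 1.62 (limma adjusted p = 0.117). Both passed where the variance was allowed to follow intensity (0.0179 and 0.0483) and where arrays were centred on their medians (0.0225 and 0.0247), and neither did with centring on white adipocyte markers (0.496 and 0.395).

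Plin4 and Plin5 are next to each other on chromosome 17 with no coding gene between them, and Plin3 follows after 7 further coding genes, by the RefSeq order of assembly GRCm38.p6. In the stretch from 4 coding genes before Plin4 to 4 after Plin3, all 18 coding genes were measured. Besides the perilipins, 0 of 15 rose and 1 fell by limma, and 7 had an unadjusted p under 0.05, of which 4 were higher in the knockout and 3 lower, where 26.5% of all genes pass that threshold. The fall was that of Ptprs, a receptor-type phosphatase, at -1.04 ± 0.15 (limma adjusted p = 0.00464). On the Plin4 side, the nearest genes Hdgfl2 and Ubxn6 differed by -0.12 ± 0.12 and 0.32 ± 0.12 (limma adjusted p = 0.594 and 0.149). On the Plin5 side, the nearest genes Lrg1 and Sema6b differed by 0.46 ± 0.19 and 0.64 ± 0.17 (limma adjusted p = 0.173 and 0.0501). These neighbours were looked up after the values of the perilipins were known.

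Many droplet genes are textbook targets of the PPAR nuclear receptors, which bind a direct repeat of the letters AGGTCA with 1 base between. The 250 bases before the start of each gene that rose are shown from RefSeq (GRCm38.p6, first entry of each gene, read on the strand of the gene), with Plin2 beside them as a perilipin that did not pass. Capitals mark the element AGGTCA or its reverse complement. Plin5 lies at chr17:56117549-56117798, minus strand, Plin4 at chr17:56109783-56110032, minus strand, Fitm2 at chr2:163472630-163472879, minus strand, Bscl2 at chr19:8837217-8837466, plus strand, and Plin2 at chr4:86670060-86670309, minus strand.
Plin5: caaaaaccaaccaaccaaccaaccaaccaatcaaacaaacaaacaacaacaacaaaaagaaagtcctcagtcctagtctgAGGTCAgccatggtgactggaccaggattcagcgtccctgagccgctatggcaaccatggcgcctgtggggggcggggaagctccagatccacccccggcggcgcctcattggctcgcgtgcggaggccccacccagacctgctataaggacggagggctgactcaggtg
Plin4: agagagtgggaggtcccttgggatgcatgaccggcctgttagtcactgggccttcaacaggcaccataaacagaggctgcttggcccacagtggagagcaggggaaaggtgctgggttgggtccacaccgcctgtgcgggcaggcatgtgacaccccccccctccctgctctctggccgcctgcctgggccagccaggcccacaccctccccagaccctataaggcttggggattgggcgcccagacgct
Fitm2: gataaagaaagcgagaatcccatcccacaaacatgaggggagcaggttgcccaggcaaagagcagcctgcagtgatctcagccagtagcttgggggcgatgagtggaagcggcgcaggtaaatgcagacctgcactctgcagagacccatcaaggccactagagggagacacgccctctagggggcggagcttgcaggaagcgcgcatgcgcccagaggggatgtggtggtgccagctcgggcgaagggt
Bscl2: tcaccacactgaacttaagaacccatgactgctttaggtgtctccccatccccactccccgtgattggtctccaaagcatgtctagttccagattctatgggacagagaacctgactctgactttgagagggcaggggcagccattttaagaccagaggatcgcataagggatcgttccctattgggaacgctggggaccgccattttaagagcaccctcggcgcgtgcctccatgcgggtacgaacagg
Plin2: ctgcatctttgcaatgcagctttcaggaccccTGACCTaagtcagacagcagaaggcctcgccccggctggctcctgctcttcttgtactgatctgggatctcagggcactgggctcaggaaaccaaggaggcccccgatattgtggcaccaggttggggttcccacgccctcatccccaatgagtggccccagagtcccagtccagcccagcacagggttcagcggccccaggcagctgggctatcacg
Plin5 holds the element once, ending 164 bases before the start, and Plin2 once, ending 212 bases before it. All 10 genes matched the RefSeq promoter table, with 17 entries because some have several starts. The single element was in 3 of these 17 windows, the third being the second Bscl2 entry, and in 4607 of 32851 windows over all genes. The whole repeat (AGGTCA, any base N, AGGTCA), which contains the single element, was searched on both strands and was in 0 of the 17 and in 0.0335% of all windows. The letters are a description of these windows only, and binding was not measured.

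The gene whose pattern over the 6 arrays was closest to that of Plin5 was Ppara, the PPAR receptor of fat-burning tissues. Closeness was the root mean square distance between 2 genes after each had its wild-type mean subtracted, and it was 0.199 log2 units for Ppara. Ppara read 5.18, 5.71 and 4.68 in wild type and 6.58, 7.12 and 6.95 in the knockout. Within each group its arrays had the same order as those of Plin5. Ppara was picked for its closeness on these same 6 arrays, so the shared order is not a separate result. A link between Ppara and Plin5 was not tested. Ppara rose by 1.69 ± 0.26 (limma adjusted p = 0.00682). Next came Vwa3a at a distance of 0.260 and Fbxo21, a ubiquitin ligase subunit, at 0.288, which rose by 1.74 ± 0.19 and 1.73 ± 0.14 (limma adjusted p = 0.00163 and 0.000476). For Plin2, the gene with the lowest difference of the 10, the closest were Ripply1 (0.0371), Sumo3 (0.0436) and Mep1a (0.0469). Ripply1 and Mep1a lay under 2.68, the 33rd percentile of gene levels, on all 6 arrays, and none of these 3 passed.

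A further list held other genes of droplet coat and formation. Of 11 measured, 2 rose and 0 fell by limma, and 3 had an unadjusted p under 0.05. Plin1, the main perilipin of adipocytes, read 10.49, 10.32 and 10.34 in wild type and 10.89, 11.10 and 11.15 in the knockout, and rose by 0.66 ± 0.12 (adjusted p = 0.0129). Cidea, the relative of Cidec found in brown fat, rose by 2.40 ± 0.52 (adjusted p = 0.0229), with wild type 1 far below the other wild-type arrays at 7.14 against 9.46 and 8.95. The median of the list was 0.06. Plin1 lost its call without knockout 2 (0.0542) and Cidea without any knockout array (0.0579 to 0.0646), so 0 rose without knockout 2.

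The enzymes that build and break down the stored triglyceride mostly lay higher. Of 7 genes of triglyceride assembly, 5 rose and 0 fell, with a median of 0.69 and 5 at an unadjusted p under 0.05. They were led by Gpat4, which adds the first fatty acid to glycerol phosphate (+1.05 ± 0.11, limma adjusted p = 0.00163), the monoacylglycerol acyltransferase Mogat1 (+0.81 ± 0.16), the phosphatidate phosphatase Lpin1 (+0.77 ± 0.12) and Dgat1, which completes triglyceride (+0.69 ± 0.11). Mogat1 lost its call without wild type 1 or 3, and 3 of the list rose without wild type 3. Of 7 genes of droplet lipolysis, 4 rose and 1 fell, with a median of 0.56. Abhd5, the protein that perilipins hold and release to activate adipose triglyceride lipase, rose by 0.93 ± 0.15 (limma adjusted p = 0.00682), the carboxylesterase Ces1d by 0.69 ± 0.14 and the monoglyceride lipase Mgll by 0.68 ± 0.15. Pnpla3, which competes for Abhd5, fell by 0.98 ± 0.23 (limma adjusted p = 0.0319). The call of Abhd5 held without any 1 array. Ces1d lost its call without wild type 1 (0.0608) or knockout 2 (0.0618), and Mgll without any 1 array other than knockout 1 (0.0559 to 0.0922). Without wild type 1, or without knockout 2, 1 lipolysis gene rose in place of 4, and the fall of Pnpla3 was lost without any wild-type array or knockout 2 (0.0507 to 0.108).

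Of 8 other caveola genes, 2 rose and 0 fell by limma, with a median of 0.26 and 5 at an unadjusted p under 0.05. Of these 5, Cavin3 alone was lower in the knockout. Cavin2, which shapes caveolae in endothelium and fat, read 9.35, 9.43 and 9.21 in wild type and 9.96, 10.13 and 10.07 in the knockout. It rose by 0.72 ± 0.12, or 1.65-fold (limma adjusted p = 0.00834), and passed without any 1 array. Cavin4, the muscle cavin, rose by 0.80 ± 0.21 (limma adjusted p = 0.0448), a call lost without any 1 array other than knockout 3 (0.0638 to 0.134). Cav3, the muscle caveolin, lay under 2.68 on all 6 arrays. Cavin3 differed by -0.56 ± 0.23 (limma adjusted p = 0.164) and was the 1 caveola gene to fall without knockout 3 (0.0375).

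**Figure D3:**
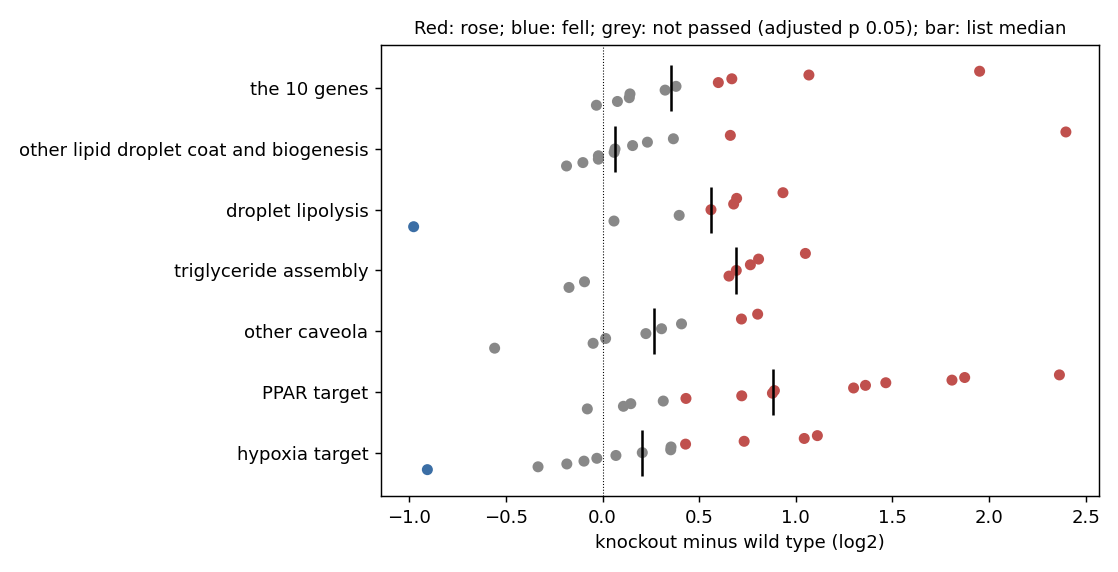
Difference of every measured gene in the 7 groups named at the left, in log2 units, with red for a rise, blue for a fall, grey for an adjusted p of 0.05 or more and a black bar for the group median. Medians run from 0.06 for other droplet coat genes to 0.88 for PPAR targets.

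Because several of the 10 genes are PPAR targets and Hilpda is a hypoxia target, lists of both kinds of target were read beside them. These lists too were chosen with earlier results of these data known. Of 14 measured PPAR targets outside the 10 genes, 10 rose and 0 fell by limma, with a median of 0.88 and 10 at an unadjusted p under 0.05. The largest were Pdk4, a brake on glucose oxidation (+2.36 ± 0.28), the peroxisomal oxidation enzyme Ehhadh (+1.87 ± 0.14), Angptl4, an inhibitor of lipoprotein lipase (+1.81 ± 0.30), and the thiolase Acaa2 (+1.47 ± 0.22), with limma adjusted p-values of 0.000441 to 0.00903. The count of PPAR targets that rose was 7 without knockout 2, 8 without wild type 1 and 9 without any other single array. Cd36, which rose, and Fabp4 and Lpl, which did not, are also counted among the white adipocyte markers below. Fabp3 and Cpt1a did not pass either, at 0.31 and -0.08 (limma adjusted p = 0.598 and 0.789). Cpt1a alone of the PPAR targets was lower in the knockout. Of 13 hypoxia targets, 4 rose and 1 fell, with a median of 0.21. The count of hypoxia targets that rose was 3 with each single array left out. Ddit4 rose by 1.11 ± 0.20, Bnip3 by 1.04 ± 0.18 and Vegfa by 0.73 ± 0.11, and P4ha1, a collagen hydroxylase subunit, fell by 0.91 ± 0.15 (limma adjusted p 0.00519 to 0.0113).

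Markers of cell types in the gland were read beside the 10 genes, first those of adipocytes. Of 7 measured white adipocyte markers, 1 rose (Cd36) and 0 fell by limma, 3 had an unadjusted p under 0.05, and the mean of the list ran from 11.24 to 11.30 in wild type and from 11.42 to 11.54 in the knockout. Cd36 lost its call without any 1 array (adjusted p 0.0765 to 0.134), so that 0 white adipocyte markers then rose. Fabp4, the brightest of the list, differed by 0.11 ± 0.11 (limma adjusted p = 0.577). Of 8 thermogenic adipocyte markers, 5 rose and 0 fell by limma, and 6 had an unadjusted p under 0.05. Their list means were 5.49 to 7.24 in wild type and 7.83 to 8.54 in the knockout, and 1 marker, Elovl3, fell without knockout 3 (0.0333). The count of rises was 5 without wild type 1, 6 without wild type 2 and 4 without any other single array. Ucp1 differed by 3.04 ± 0.91 and did not pass (limma adjusted p = 0.0709). Dio2 and Elovl3 were lower in the knockout, at -0.65 and -0.67, and did not pass either (limma adjusted p = 0.22 and 0.278). The brightest, Cidea, is described above. Wild type 2 had the highest thermogenic mean and the highest Plin5 of the wild-type arrays, while the lowest thermogenic mean was that of wild type 1 and the lowest Plin5 that of wild type 3.

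Of 8 endothelial markers, 3 rose and 0 fell by limma, and 7 had an unadjusted p under 0.05, with list means of 7.92 to 8.04 in wild type and 8.25 to 8.68 in the knockout. The count was 5 without knockout 1 and 2 without any other single array. Cdh5, the brightest, differed by 0.52 ± 0.16 (limma adjusted p = 0.0789). Emcn, also among the 7, was lower in the knockout, at -0.32 ± 0.11 (limma adjusted p = 0.113). Of 6 smooth muscle and pericyte markers, 0 rose and 3 fell, 5 had an unadjusted p under 0.05, and list means were 8.92 to 9.19 and 8.30 to 8.76. Acta2, the brightest, fell by 0.77 ± 0.13 (limma adjusted p = 0.0102). Of 6 fibroblast markers, 0 rose and 3 fell, 5 had an unadjusted p under 0.05, and list means were 10.99 to 11.20 and 10.35 to 10.49. Their median difference was -0.54, and that of the smooth muscle and pericyte list was -0.56. In the smooth muscle and pericyte list 1 gene, Rgs5, lay higher in the knockout, by 0.48 ± 0.14 (limma adjusted p = 0.0655). It was 1 of the 5 of that list at an unadjusted p under 0.05. Dcn, the brightest fibroblast marker, differed by -0.29 (limma adjusted p = 0.127). Of 8 skeletal muscle markers, 0 passed by limma and 1 had an unadjusted p under 0.05, while 1, Myh4, fell without wild type 3 (0.0271). Elovl3, Ucp1, Dio2, Emcn, Rgs5 and Myh4, and Krt14 below, are named after their values were seen. So are Cavin3, Cav3, Cd36, Lpl, Fabp3 and Cpt1a above.

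Of 6 macrophage markers, which belong to cells that also use Plin2, 0 rose and 4 fell by limma, with all 6 at an unadjusted p under 0.05. Their list means were 8.06 to 8.39 in wild type and 7.30 to 7.48 in the knockout. The count was 1 without wild type 1 or knockout 1, 2 without wild type 3, knockout 2 or knockout 3, and 4 without wild type 2. Mrc1, the brightest, fell by 0.46 (limma adjusted p = 0.0376), a call lost without any 1 array. All 6 luminal epithelial markers fell, with a median of -2.51, as did 3 of 4 basal ones, with a median of -1.92. None of the markers of these lists lay under 2.68 on all 6 arrays, but the basal marker Krt14 did on all 3 knockout arrays (2.18, 2.42 and 2.43). The part of these cell types in the differences of the 10 genes was not tested.

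**Figure D4:**
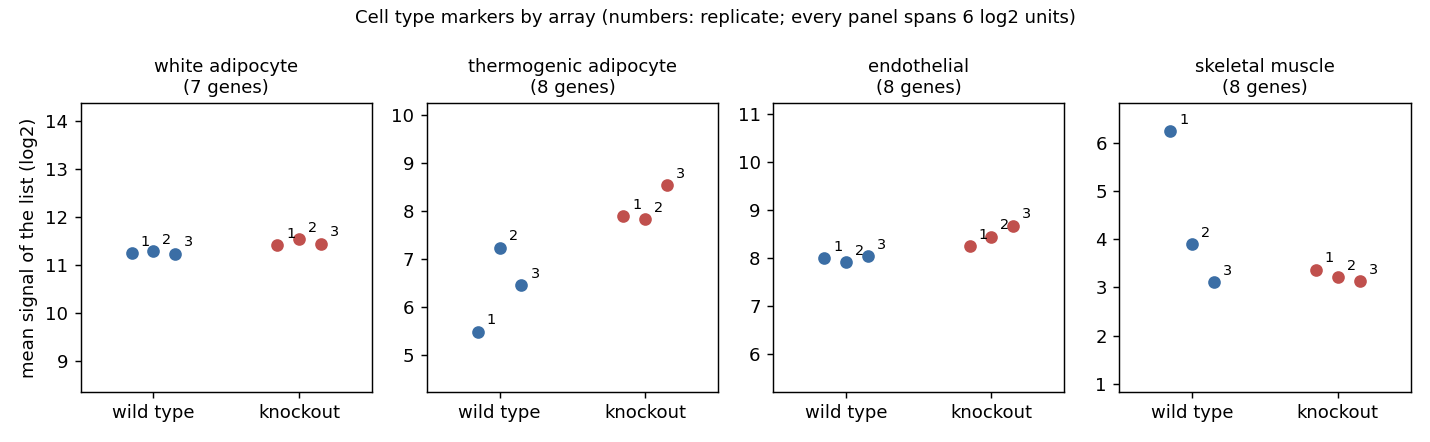
Mean log2 signal of 4 lists of cell type markers on each array, wild type in blue and knockout in red, numbered by replicate. The white adipocyte means lie within 11.24 to 11.54, the thermogenic means span 5.49 to 8.54, and wild type 1 stands out for muscle at 6.25.

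The white adipocyte markers also served as a scale. With each array centred on their mean, the median difference of all genes was -0.17. Plin5 then rose by 1.75 ± 0.21 (limma adjusted p = 0.0014) and Fitm2 by 0.87 ± 0.14 (0.00473). On that scale Bscl2 was at 0.47 (0.0585) and Plin4 at 0.40 (0.093), and neither passed. With centring on array medians, taken over the 22180 genes, the median difference of all genes was 0.22. There 6 of the 10 rose, Cav1 and Cavin1 included. The split of all calls moved with these scales, from 1121 rises and 1596 falls as deposited to 3155 and 1178 on array medians and to 502 and 2955 on white adipocyte markers.

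**Figure D5:**
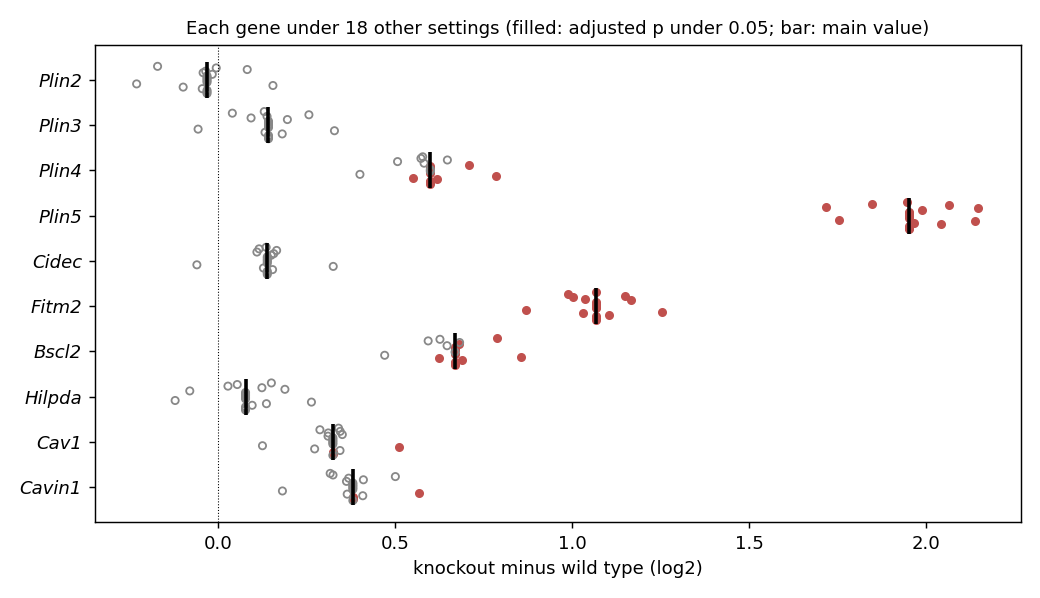
Difference of each gene in log2 units under 18 other settings (circles) and as reported (black bar), filled where the adjusted p was under 0.05. All circles of Plin5 and Fitm2 are filled, those of Plin4 and Bscl2 are filled in part, and Plin2, Plin3, Cidec and Hilpda have none filled.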

How the data were processed

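Total RNA of 6 whole glands (400 ng each) was hybridised to Affymetrix arrays, per the labels' protocols. The authors deposited log2 values, 1 per probe set and array; the submitters' processing notes name RMA and limma, without versions. No source states the base of the logarithm; it was read as 2, the base RMA writes and one the range of values allows. No source used here gives the chip definition or any probe filter. Over all 41345 probe sets, array medians were 3.85 to 3.89 in wild type and 3.77 to 3.78 in the knockout. Centring on array medians used the medians of the 22180 genes instead. Of 41345 probe sets, 23521 carry 1 symbol, 1814 several and 16010 are unnamed here; the probe set of highest mean was kept for each of 22180 genes. limma 3.58.1 in R 4.3.3 (lmFit, eBayes, no trend) compared the groups, with 95% intervals from its moderated fit. The steps were tested on simulated data. The number of arrays limits the precision. The p-values rest on 3 biological replicates per group, as labelled. Members, lists and motifs were chosen with earlier results of these data known. Of 128 list entries, 119 matched a measured gene; Spg20 and Tmem159 stand for spartin and Ldaf1. Named from each list were up to 4 genes past the threshold by size, the marker of highest signal, and the 3 genes closest to the members with the largest and the lowest difference. Alternatives tried: dropping genes in the lowest 33 percent by mean signal, variance trends, array weights, other scalings, other uses of probe sets, the replicate number as a block, other thresholds and each array left out.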

Additional observations from a re-analysis of the deposited data

How the results depend on the processing

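The count of 4 rises among the 10 genes was 2 with centring on white adipocyte markers, with every probe set tested and with an at least 2-fold change, and 2 to 3 with 1 array left out. It was 6 with either intensity trend or centring on array medians, and 5 at an adjusted p under 0.1. The count of falls was 0 under all 18 settings. Plin5, Fitm2 and Mmp14 kept direction and call under all 18, with Plin5 at 1.72 to 2.15 and Fitm2 at 0.87 to 1.25. Plin4 kept its call under 9 and Bscl2 under 11, and both stayed positive. With the replicate number as a block, 3 of the 10 rose and Plin4 did not (limma adjusted p = 0.0738). For samples of the same number, the correlations of their deviations were -0.034, -0.052 and -0.032, and no sample correlated best with its own number. The labels do not say whether equal numbers mark a litter, and these correlations cannot exclude it. Of the other lists, with every probe set tested, 1 droplet coat gene, 1 lipolysis gene, 3 assembly genes and 1 caveola gene rose and 0 lipolysis genes fell. With an at least 2-fold change, rises were 1 of the droplet coat, 0 of lipolysis, 1 of assembly, 0 of caveola, 6 of PPAR and 2 of hypoxia genes, and 0 lipolysis or hypoxia genes fell. On white adipocyte markers 2 lipolysis genes and 1 caveola gene rose, on array medians 4 caveola genes rose, and under the block 0 lipolysis genes fell. The causes were not tested. All 10 genes lay above 2.68, the 33rd percentile of gene levels, on all 6 arrays.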
